A study of Homo sapiens with 6 samples.

Results

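The 10 genes EREG, PTGS2, SPARC, VCAM1, ID1, TNC, ANGPTL4, KYNU, LTBP1 and FSCN1 belong to the set of transcripts that others linked to lung metastasis in lung-seeking descendants of the breast cancer line MDA-MB-231. They were chosen by symbol, not by their values here, though earlier results of these data were known when they were chosen. They come from the 17687 genes with a named probe set, and each had 1 probe set. Their signals were compared on 6 single-colour Affymetrix arrays of 4175 cells, the lung-seeking variant of MDA-MB-231, which is a human triple-negative breast cancer line of mesenchymal type. The 3 sicontrol arrays hold RNA of cells transfected with a control siRNA, and the 3 siPGC1alpha arrays that of cells transfected with an siRNA to PGC-1alpha, the coactivator encoded by PPARGC1A. Transfection began 24 hours after plating and lasted 48 hours in both groups. Both groups are the same cultured line, and no parental MDA-MB-231 cells were analysed here. The titles number the replicates 1 to 3, and no label speaks of separate cultures, so the p-values below reflect the spread between these arrays, part or all of which may be technical. In RNA from a whole culture, fewer cells of a type and less RNA per cell cannot be told apart.

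Cells that leave a breast tumour for the lung must cross the lung capillary wall, survive as single cells and restart growth. Secreted factors such as epiregulin, the prostaglandins made by cyclooxygenase-2 and ANGPTL4 loosen endothelial junctions, matrix proteins such as tenascin C and SPARC build the niche, VCAM1 ties the cells to leukocytes, and ID1 and fascin act inside the cell on regrowth and motility. PGC-1alpha, best known for mitochondrial biogenesis, works by docking on transcription factors, among them the PPAR receptors that induce ANGPTL4.

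A sequence feature that the choice of genes did not use was found just upstream of their start sites. RefSeq promoter windows (GRCh38.p14) were at hand for 9 of the 10 genes, all but FSCN1. In 5 of the 9, the word TATAAA, the core of a TATA box, began between 40 and 20 bases before the start on the gene's own strand, against 4.17% of the 14250 compared genes that have a window and 2.30% of all 35116 windows. The word was picked after the sequences had been looked at, so the share is a description with no test, and a match is letters, not a shown site of binding. The 100 bases before the start are printed 5′ to 3′ on the gene's strand for the 5 genes with the word and for TNC. The search took only words that began between those 2 bounds, so a like spacing among the 5 follows in part from the search. Capitals mark TATAAA and, in VCAM1, also 2 words that resemble the binding motif of NF-kappaB, the inflammatory factor that is known to switch on VCAM1.
EREG, chr4:74365045-74365144, plus strand: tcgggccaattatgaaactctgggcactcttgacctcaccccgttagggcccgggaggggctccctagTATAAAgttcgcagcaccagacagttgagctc
PTGS2, chr1:186680424-186680523, minus strand: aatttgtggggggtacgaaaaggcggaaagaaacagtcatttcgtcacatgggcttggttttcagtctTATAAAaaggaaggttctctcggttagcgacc
VCAM1, chr1:100719642-100719741, plus strand: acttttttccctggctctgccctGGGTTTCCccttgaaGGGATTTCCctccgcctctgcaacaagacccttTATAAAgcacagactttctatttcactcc
ID1, chr20:31605189-31605288, plus strand: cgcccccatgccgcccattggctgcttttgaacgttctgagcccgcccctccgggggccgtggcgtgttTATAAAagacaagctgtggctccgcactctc
ANGPTL4, chr19:8364055-8364154, plus strand: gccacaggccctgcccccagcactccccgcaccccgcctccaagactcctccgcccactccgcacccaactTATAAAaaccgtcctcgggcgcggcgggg
TNC, chr9:115118158-115118257, minus strand: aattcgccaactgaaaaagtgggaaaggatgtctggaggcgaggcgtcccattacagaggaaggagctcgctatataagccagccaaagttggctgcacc

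The first base of the word lay at -32 in EREG and PTGS2, at -31 in ID1 and at -29 in VCAM1 and ANGPTL4, counting -1 as the base next to the start. TNC has a run of alternating t and a in the same stretch without the searched word, and the windows of SPARC, KYNU and LTBP1 (the last with 3 windows for 3 start sites) do not hold it between those positions. In VCAM1, GGGTTTCC and GGGATTTCC follow each other. Searched on both strands in the last 100 bases, GGGTTTCC was in 0.567% of all windows and GGGATTTCC in 0.154%. These words were read off the VCAM1 window itself, so that they are scarce elsewhere follows in part from the choice. In the values below, genes with the word lay on both sides of the controls.

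The series has 1 array that stands apart, siPGC1alpha replicate 1, and it is therefore shown apart. Its Pearson r with the other arrays, taken across genes (no independent replicates), was 0.585 to 0.604, while r among those 5 was 0.995 to 0.996. On the controls, 6 of 6 markers of the mesenchymal line lay above the 95th percentile of negative control probe sets, among them VIM (vimentin) with a mean of 12.80 ± 0.017 (SD, n = 3) and CD44 at 11.04 ± 0.071. Of the 9 luminal or epithelial markers, PGR and CDH1 were below that percentile at 2.76 ± 0.078 and 3.97 ± 0.26. ESRP1 and GRHL2 were below it too, with means of 4.23 and 4.90. The other 5 of the 9 were above it. Their means were 5.96 for FOXA1, 5.99 for ESR1, 7.43 for EPCAM, 7.83 for GATA3 and 9.40 for KRT19. On replicate 1 the mean signal of the mesenchymal markers was 9.78, against 11.35 on each control array, and that of the 9 luminal or epithelial markers was 7.29, against 5.79 to 5.89. Bright genes as a whole read low and dim genes high on that array, with median deviations from the control mean of -2.12 in the brightest decile of all genes and 1.04 to 1.32 in the 5 dimmest. The mean deviation was -1.57 for the mesenchymal markers, whose deciles had medians averaging -1.99. It was 1.45 for the luminal or epithelial ones, whose deciles averaged 0.69. In their own deciles the mesenchymal markers lay anywhere from above 30.5% to above 92.6% of genes. The luminal or epithelial ones lay from above 29.0% (EPCAM) to above 99.9% (KRT19). KRT19 read 12.69 on replicate 1 against a control mean of 9.40, in a decile with a median deviation of -1.34. Against the direction of their lists, ITGB1 deviated by 0.43 and EPCAM by -0.53. PPARGC1A itself, the siRNA target, read 6.45, 6.49 and 6.49 on the controls, 6.52 and 6.47 on siPGC1alpha replicates 2 and 3 and 7.95 on replicate 1. No array labelled siPGC1alpha was below the lowest control, so the label of a knockdown is not borne out at this probe set. On replicate 1 most genes of its decile read high, with a median deviation of 1.23 against 1.47 for PPARGC1A, and 68.7% of them deviated less far up. The arrays are called siPGC1alpha here because that is their label.

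On all the control arrays, each of the 10 genes gave a signal above at least 98.7% of the 612 negative control probe sets. Negative control probe sets are those that the platform's identifiers mark as such, and they are used here as the background of an array. Which sequences they match was not checked. The 95th percentile of these probe sets over the controls was 5.53 on the log2 scale, and all 10 control means exceeded it, as did those of 77.4% of all genes. Signals of different probe sets are not compared with one another, because each binds with its own strength. The closeness of the controls differed between genes, with SDs from 0.027 for EREG to 0.20 for VCAM1.

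None of the 10 transcripts passed the test between siPGC1alpha replicates 2 and 3 and the controls. Limma, a linear model with a spread shared across genes, fitted to these 5 arrays over all 17687 genes, called 0 of the 10 at an adjusted p under 0.05, where it called 0% of all genes. It gave 0 of the 10 an unadjusted p under 0.05, as it did 4.44% of all genes. All differences lay between -0.12 (ANGPTL4) and 0.16 (TNC) on the log2 scale, 4 above 0 and 6 below, with a median of -0.021 against 0.0080 over all genes. As ratios they ran from 0.923 to 1.11, and for 10 of 10 genes the 95% confidence interval stayed within a 1.5-fold change either way, which was so for 95.2% of all genes. In 1 of the 10, ID1, both siPGC1alpha arrays lay above all controls, a pattern that 11.3% of all genes had.

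**Figure D1:**
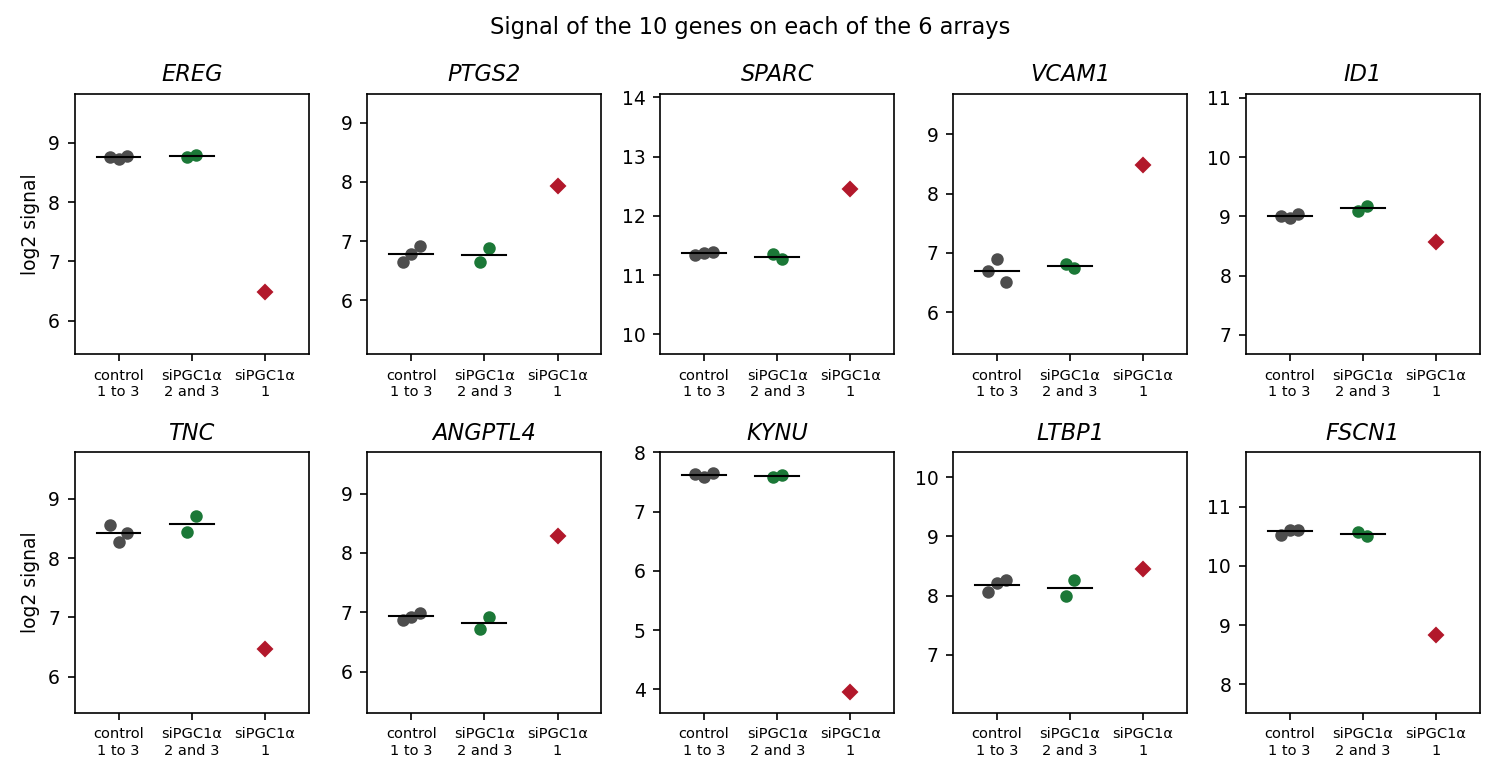
Signal (log2) of each gene on the 6 arrays: grey circles are sicontrol replicates 1 to 3, green circles siPGC1alpha replicates 2 and 3, red diamonds siPGC1alpha replicate 1, and black lines the means of the circles; every panel spans the same height. The green circles sit at the level of the grey ones in all panels, while the diamond lies more than 1 unit away in 8 of the 10.

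The secreted factors were epiregulin and ANGPTL4. EREG, a ligand of the EGF receptor family, read 8.76, 8.73 and 8.78 on the controls and 8.77 and 8.79 on siPGC1alpha replicates 2 and 3 (probe set TC0400007853.hg.1). The 5 values overlap and are the tightest of the set. The difference was 0.021 (SE 0.070, limma adjusted p = 0.9998), a ratio of 1.01 with an interval of 0.903 to 1.14. Replicate 1 read 6.47, a ratio to the control mean of 0.205.

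Of the other EGF family ligands, their receptors and the sheddase ADAM17, 9 of 11 listed genes were measured and 0 passed in either direction, with a median difference of -0.0014. EPGN, the ligand epigen, had a log2 difference of 0.16 (SE 0.098), and ADAM17, the protease that frees several of these ligands from the membrane, had one of 0.17 (SE 0.15). EPGN had a control mean of 3.36, below the 95th percentile of the negative controls.

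ANGPTL4, an angiopoietin-like protein that inhibits lipoprotein lipase and is induced by PPAR receptors, hypoxia and TGF-beta, read 6.87, 6.92 and 6.99 on the controls and 6.71 and 6.91 on siPGC1alpha replicates 2 and 3 (TC1900006892.hg.1). Replicate 2 was below every control, and replicate 3 lay within their range. The difference was -0.12 (SE 0.090, limma adjusted p = 0.9998), and the 95% interval of the ratio ran from 0.796 to 1.07. Without replicate 2 the difference was -0.016, and without replicate 3 it was -0.21. Replicate 1 read 8.29, or 2.58 times the control mean.

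Among the related angiopoietin-like genes, the lipases and the upstream factors of ANGPTL4, 9 of 12 genes were measured, 0 passed, and the median difference was -0.0085. PPARA, a nuclear receptor of fatty acid catabolism, differed by -0.12 (SE 0.082), and HIF1A, the oxygen-sensitive subunit of the hypoxia factor, by -0.095 (SE 0.084).

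The enzymes of the set were PTGS2 and KYNU. PTGS2, cyclooxygenase-2, which makes the precursor of prostaglandins, read 6.65, 6.78 and 6.91 on the controls and 6.65 and 6.88 on siPGC1alpha replicates 2 and 3 (TC0100016715.hg.1). Replicate 2 lay just below the lowest control and replicate 3 within the control range, so the groups overlap. The difference was -0.018 (SE 0.11, limma adjusted p = 0.9998) with an interval of -0.28 to 0.24. It turned to 0.096 without siPGC1alpha replicate 2 and to 0.046 without sicontrol replicate 3. Replicate 1 read 7.93, 2.23 times the control mean.

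All 13 listed genes of prostaglandin synthesis, transport and reception were measured, 0 passed, and 6 lay above 0 and 7 below. PTGER1 and PTGER2, receptors of prostaglandin E2, differed by 0.15 (SE 0.075) and -0.21 (SE 0.12). PTGER2 had a control mean of 5.16, below the 95th percentile of the negative controls.

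KYNU, kynureninase, which cleaves the tryptophan product kynurenine and its hydroxylated form, read 7.63, 7.58 and 7.66 on the controls and 7.58 and 7.62 on siPGC1alpha replicates 2 and 3 (TC0200009537.hg.1). Both siPGC1alpha values fell within the control range. The difference was -0.024 (SE 0.072, limma adjusted p = 0.9998). On replicate 1 it read 3.95, above 55.4% of the negative control probe sets of that array, whereas on every control array it exceeded at least 99.7% of them.

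Of 13 listed genes of the kynurenine pathway, 12 were measured and 0 passed, with a median difference of 0.0088. KMO, the hydroxylase acting just before KYNU, differed by -0.27 (SE 0.12) at a control mean of 3.34, below the 95th percentile of the negative controls. AADAT, an aminotransferase of the same branch point, differed by -0.18 (SE 0.089).

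The matrix proteins were SPARC, TNC and LTBP1. SPARC, a collagen-binding glycoprotein, read 11.34, 11.38 and 11.39 on the controls and 11.35 and 11.27 on siPGC1alpha replicates 2 and 3 (TC0500012519.hg.1). Replicate 3 was below every control and replicate 2 was among them. The difference, -0.058 (SE 0.073, limma adjusted p = 0.9998), slightly exceeded the whole control range of 0.053. Replicate 1 read 12.46, 2.13 times the control mean.

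All 8 listed relatives and collagen partners of SPARC were measured and 0 passed, with 5 above 0 and 3 below. SPOCK1, a testican proteoglycan of the SPARC family, differed by 0.18 (SE 0.088), and SMOC1, another family member, by 0.17 (SE 0.10).

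TNC, tenascin C, a hexameric matrix protein of stem cell and metastatic niches, read 8.56, 8.27 and 8.42 on the controls and 8.44 and 8.72 on siPGC1alpha replicates 2 and 3 (TC0900011305.hg.1). Replicate 3 was the highest of the 5, and replicate 2 lay in the middle of the controls. The difference, 0.16, was the furthest from 0 in the set, with an SE of 0.12 (limma adjusted p = 0.9998) and a ratio of 1.11 (interval 0.912 to 1.36). Without replicate 3 it was 0.016, and without replicate 2 it was 0.30. The signal on replicate 1 was 6.47, a ratio of 0.258 to the control mean.

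Of 10 listed tenascins, tenascin receptors and downstream genes, 9 were measured and 0 passed. ITGAV, the alpha-v integrin chain, differed by 0.18 (SE 0.075). MSI1, an RNA-binding protein that tenascin C maintains in breast cancer cells, differed by -0.17 (SE 0.072). Both had groups that do not overlap, as 19.7% of all genes did in one direction or the other.

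LTBP1, which holds latent TGF-beta in the matrix, read 8.06, 8.21 and 8.27 on the controls and 8.00 and 8.27 on siPGC1alpha replicates 2 and 3 (TC0200007200.hg.1). Replicate 2 was the lowest of the 5 and replicate 3 matched the upper controls. The difference was -0.050 (SE 0.11, limma adjusted p = 0.9998), and it turned to 0.085 without replicate 2. Replicate 1 read 8.45, 1.20 times the control mean, the nearest of the 10 genes to its controls.

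In the list of latent TGF-beta binding and activation, 12 of 13 genes were measured, 0 passed, and the median difference was -0.012. FBN2, fibrillin-2, a microfibril protein related to the LTBPs, had the lowest difference of any listed partner gene, -0.33 (SE 0.089, limma adjusted p = 0.9998). It read 6.69, 6.56 and 6.67 on the controls, 6.40 and 6.22 on siPGC1alpha replicates 2 and 3 and 7.92 on replicate 1, so it was lower without overlap on the first pair, as 8.42% of all genes were, and higher on the array that stands apart. ITGB6, a chain of a TGF-beta-activating integrin, differed by -0.24 (SE 0.11) at a control mean of 4.09, below the 95th percentile of the negative controls.

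At the cell surface, VCAM1, the adhesion molecule that binds the integrin VLA-4 of leukocytes, read 6.69, 6.89 and 6.50 on the controls and 6.82 and 6.75 on siPGC1alpha replicates 2 and 3 (TC0100009221.hg.1). Both siPGC1alpha values fell within the control range, which at 0.39 was the widest of the set. The difference was 0.091 (SE 0.12, limma adjusted p = 0.9998), and without sicontrol replicate 3 it was -0.0053. Replicate 1 read 8.48, 3.45 times the control mean, the highest ratio of the 10 genes on that array.

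All 9 listed counter-receptors and related adhesion molecules were measured and 0 passed. ITGB7, an integrin chain that pairs with the alpha-4 chain, differed by -0.11 (SE 0.14), and ALCAM, an adhesion molecule of the immunoglobulin family, by 0.077 (SE 0.080). VCAM1 is also a product of activated endothelium. The 7 endothelial markers had mean signals of 6.39 to 6.62 on the controls, 6.50 and 6.52 on siPGC1alpha replicates 2 and 3, and 7.65 on replicate 1, where 4 of the 7 were over 2-fold higher, as were 38.9% of all genes. Set beside all genes of like brightness on the controls (the same decile of control mean), the 7 lay anywhere from above 20.2% to above 96.3% of them. Their part in the VCAM1 value was not tested.

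Inside the cell, ID1, which blocks basic helix-loop-helix transcription factors by binding them without touching DNA, read 9.01, 8.98 and 9.04 on the controls and 9.09 and 9.17 on siPGC1alpha replicates 2 and 3 (TC2000007083.hg.1). Both siPGC1alpha values were above all controls. The difference was 0.12 (SE 0.074), a ratio of 1.09 with an interval of 0.964 to 1.23, and it did not pass (limma adjusted p = 0.9998). Replicate 1 went the other way, with 8.57, or 0.737 of the control mean, so that over all 3 siPGC1alpha arrays the groups overlap.

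Of 13 genes of the ID family, their E protein partners and BMP signalling, which induces ID1, 12 were measured and 0 passed, with 4 above 0 and 8 below. SMAD5, a transducer of BMP signals, differed by 0.18 (SE 0.095), and SMAD6, an inhibitor of the same pathway, by -0.21 (SE 0.11).

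FSCN1, fascin, which bundles actin into filopodia, read 10.53, 10.60 and 10.61 on the controls and 10.57 and 10.50 on siPGC1alpha replicates 2 and 3 (TC0700006629.hg.1). Replicate 3 lay just below the lowest control and replicate 2 among them. The difference was -0.042 (SE 0.074, limma adjusted p = 0.9998). Replicate 1 read 8.83, a ratio of 0.297 to the control mean.

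All 15 listed genes of actin bundling and filopodia were measured and 0 passed, with a median difference of 0.0050. ENAH, an elongation factor of filopodial actin, differed by -0.22 (SE 0.087), and FSCN3, the testis fascin, by -0.24 (SE 0.12).

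**Figure D2:**
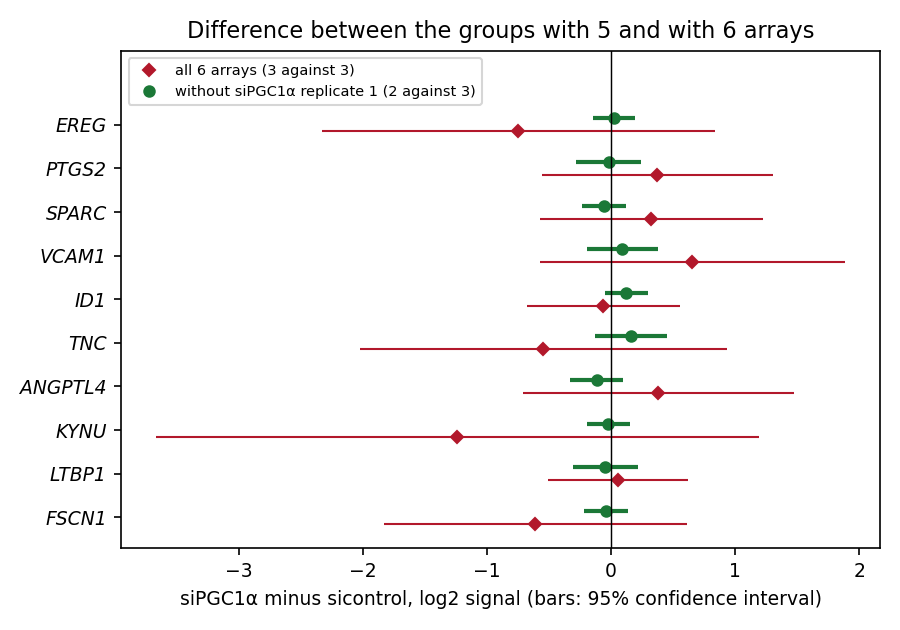
Difference between siPGC1alpha and sicontrol in log2 signal for each gene, with 95% confidence intervals from limma: green circles leave out siPGC1alpha replicate 1 and red diamonds take all 6 arrays. All intervals include 0, and with replicate 1 the interval is wider for each of the 10 genes.

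With all 6 arrays in the fit, limma again called 0 of the 10 genes and 0% of all genes (lowest adjusted p of the 10, 0.663), and 0 of the 10 had an unadjusted p under 0.05, as 0.017% of all genes did. The SEs then ran from 0.23 to 1.0, against 0.070 to 0.12 without replicate 1. Differences ranged from -1.24 (KYNU) to 0.66 (VCAM1), and 7 of the 10 had the opposite sign to the fit without replicate 1. The exceptions were VCAM1, KYNU and FSCN1. The groups overlapped for all 10 genes with 6 arrays, while 7.28% of all genes had groups that did not.

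Taken by itself, siPGC1alpha replicate 1 was more than 2-fold from the control mean for 8 of the 10 genes, as it was for 64.2% of all genes. The 4 lower ones were KYNU, EREG, TNC and FSCN1, with deviations of -3.67, -2.28, -1.95 and -1.75 on the log2 scale (25.3% of all genes were lower by that bound). The 4 higher ones were VCAM1, ANGPTL4, PTGS2 and SPARC, with deviations of 1.79, 1.36, 1.15 and 1.09 (38.9% of all genes were higher by it). This is 1 array without a replicate, so these are its values and no test is given.

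On that array dim genes tended to read high and bright genes low, so each gene was set beside all genes in the same decile of control mean. For PTGS2, ANGPTL4, ID1, LTBP1 and FSCN1 the value was near the middle of its decile, with 55.3% to 68.4% of those genes deviating further down. EREG and TNC were in the lower part (21.2% and 26.6%), and VCAM1 in the upper part (89.5%). KYNU and SPARC were at the ends. In the decile of KYNU the median deviation was 0.47, and 0.961% of its genes fell further than KYNU did. In the brightest decile, that of SPARC, 88.6% of genes were lower than their controls with a median of -2.12, whereas SPARC was higher, and 98.1% of those genes had a lower deviation than SPARC.

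SPARC is also abundant in fibroblasts. The 7 measured fibroblast markers had a mean signal of 6.26 to 6.40 on the controls, 6.27 and 6.31 on siPGC1alpha replicates 2 and 3, and 7.40 on replicate 1, where 5 of the 7 were over 2-fold higher, as were 38.9% of all genes. In their own deciles the 7 lay anywhere from above 3.17% of genes (LUM, lumican, at 3.74 against a control mean of 3.70) to above 96.0% (COL1A2, a chain of collagen I). The part of such markers in the SPARC value was not tested. The 6 measured leukocyte markers averaged 6.95 to 6.99 on the controls, 6.97 and 6.87 on siPGC1alpha replicates 2 and 3, and 7.69 on replicate 1. There CD68, a macrophage marker, read 7.96 against a control mean of 10.77, while the other 5 deviated upward by 0.80 (CD14) to 1.94 (ITGAM). CD68 belongs to the brightest decile, with a median deviation of -2.12. In their own deciles the 6 lay from above 35.7% of genes (CD68) to above 93.8% (ITGAM). Their mean deviation was 0.71, and the medians of their deciles averaged 0.44. By the 2-fold bound 4 of the 6 were higher and 1 was lower, as were 38.9% and 25.3% of all genes.

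**Figure D3:**
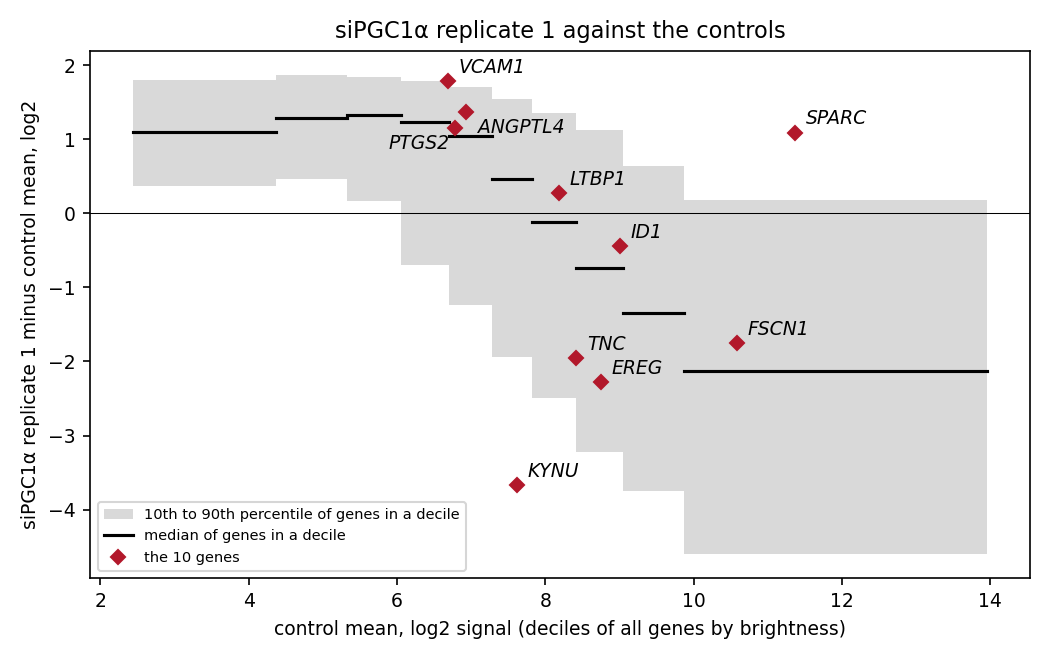
Deviation of siPGC1alpha replicate 1 from the control mean (vertical, log2) against the control mean (horizontal, log2 signal) for the 10 genes as red diamonds; for each decile of all genes by brightness, the black line is the median and the grey band spans the 10th to the 90th percentile. SPARC lies above the band, VCAM1 at its upper edge and KYNU below it.

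The genes outside the set whose deviations from their own controls over the 6 arrays were most like those of each member were found by the smallest root mean square distance. They were GDAP2 for EREG (0.019 on the log2 scale), OR5M11 for PTGS2 (0.030), TMEM238 for SPARC (0.013), TMEM179 for VCAM1 (0.041) and LRRC42 for ID1 (0.026). For the other members they were ELP4 for TNC (0.032), ITGA8 for ANGPTL4 (0.026), ATP2A2 for KYNU (0.028), ABHD14A for LTBP1 (0.038) and PTPRA for FSCN1 (0.021). With 6 arrays and 1 of them far from the rest, the likeness is mostly that of the deviation on replicate 1. OR5M11, an olfactory receptor gene, had a control mean of 4.06, below the 95th percentile of the negative controls.

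Other genes of the lung metastasis signature did not pass the test either. Of 11 listed, 10 were measured, 0 passed, and 7 lay above 0 and 3 below, with a median difference of 0.075 without replicate 1. MMP1, a collagenase that acts with EREG and PTGS2 on tumour vessels, read 9.04, 9.02 and 9.13 on the controls and 9.32 and 9.22 on siPGC1alpha replicates 2 and 3. It differed by 0.20 (SE 0.079, limma adjusted p = 0.9998). CXCL1, a chemokine that attracts neutrophils, differed by 0.12 (SE 0.072). Both were above all controls on replicates 2 and 3, as 11.3% of all genes were, and both were below them on replicate 1, with 6.69 and 7.73. MAN1A1, a mannosidase that trims N-glycans, was named after its values were seen, as the other gene of the list above all controls on replicates 2 and 3. Unlike MMP1 and CXCL1, it was above all controls on replicate 1 as well. Over all 6 arrays, 7.28% of all genes had groups that did not overlap, in one direction or the other. On replicate 1 alone, 17123 of the 17687 genes lay outside the range of the controls, above or below. MAN1A1 read 7.16, 6.83 and 7.15 on the controls, 7.26 and 7.23 on siPGC1alpha replicates 2 and 3 and 9.10 on replicate 1. Its difference was 0.20 (SE 0.12, limma adjusted p = 0.9998) without replicate 1. The median deviation on replicate 1 was 1.04 in its decile, where 24.5% of genes read lower than their controls.

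Over the 11 lists together, 117 of 127 partner genes were measured, and limma called 0 with or without replicate 1. Without it, 3 had an unadjusted p under 0.05, which is 2.56% of them against 4.44% of all genes. These were MMP1, FBN2 and ENAH. Differences ran from -0.33 to 0.24, with 59 genes above 0 and 58 below.

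**Figure D4:**
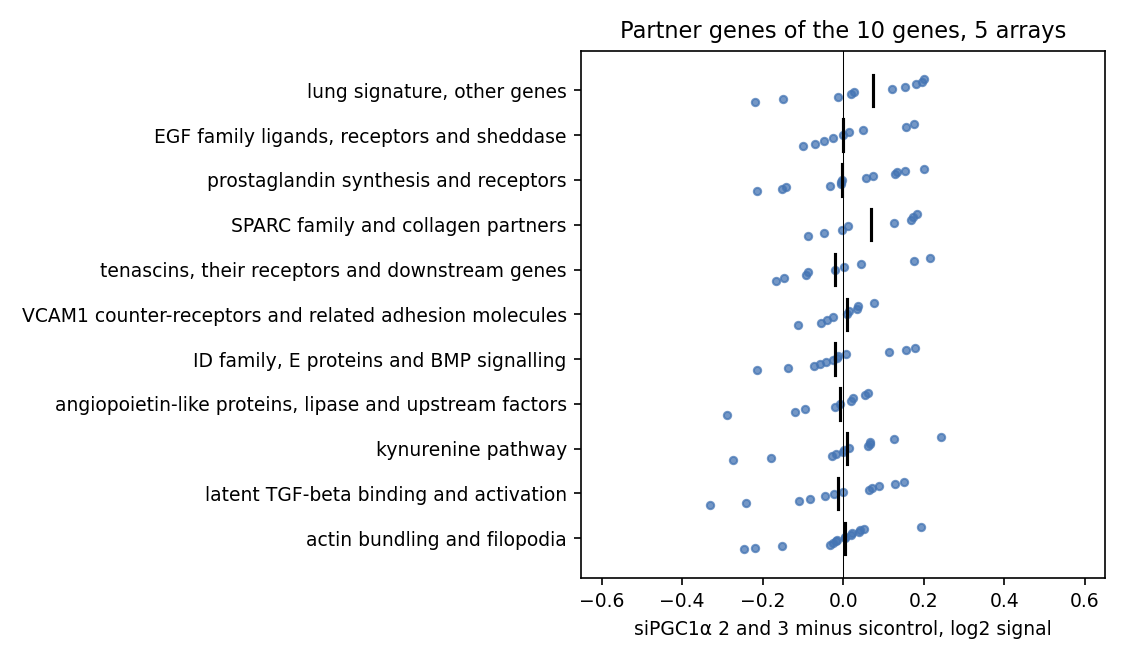
Difference in log2 signal between siPGC1alpha replicates 2 and 3 and the controls for each partner gene (blue points, 1 row for each list; a gene in 2 lists appears in both), with the list median as a black bar. The points spread on both sides of 0 in every list, from -0.33 for FBN2 to 0.24.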

How the data were processed

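Per the labels' protocols, 10 ng of total RNA per sample was converted to labelled DNA with a low-input kit, and each sample was hybridised to 1 array. The values deposited by the authors were taken to be log2 signals, 1 per probe set and array. Their range is the basis for that base, and background correction and normalization by the authors are not stated in the labels. The platform annotation paired 17709 of 24320 probe sets with 1 symbol, 0 with several and 6611 with none, and the RefSeq gene table (GRCh38.p14) held each of those 17709 identifiers. The probe set with the highest mean was kept for each of 17687 genes (20 genes had several, none of them a member). Medians over these genes were 7.28 to 7.30, and the number of arrays limits the precision. A further deposited table with 6 columns, whose names match no sample, was not used.

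Samples were grouped by title. Limma 3.58.1 (lmFit, eBayes; R 4.3.3) was run over all genes, with Benjamini-Hochberg adjustment, a threshold of 0.05 and no filter, on the 5 arrays without siPGC1alpha replicate 1, and on all 6 beside it. The test was tried on simulated data, where the added differences were larger than those of the members. The trial therefore does not show whether differences as small as these would be found. The members, the lists and the decision to show replicate 1 apart were chosen with earlier results of these data known. Named beside the members were PPARGC1A, the 2 genes of each partner list with the smallest unadjusted p, the gene with the nearest profile to each member, and cell type markers. Alternatives were all 6 arrays, quantile normalization, median centring, trend and robust eBayes, a replicate block, dim-gene filters, the mean of probe sets, a threshold of 0.1 and leaving out each array in turn.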

Additional observations from a re-analysis of the deposited data

Results flagged for a closer look

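Of 5 classes of probe sets that the gene comparison leaves out, 4 had a median on siPGC1alpha replicate 1 above that of every control array. These medians were 6.50 against at most 5.11 for 63 ERCC spike-in probe sets, 3.79 against at most 3.44 for 612 negative controls, 7.01 against at most 6.50 for 3188 without a gene name, and 7.09 against at most 6.62 for 551 unmapped transcripts. The median of the 2197 positive controls was lower there, 8.41 against at least 10.39. Genes on that array also read high where dim and low where bright. Their median deviations were 1.04 to 1.32 in the 5 dimmest deciles and -2.12 in the brightest. Whether the class medians follow brightness alone was not tested. Groups of 3 arrays are too small for a check on single outlying values of a gene.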

How the results depend on the processing

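Under all 15 alternatives, 0 of the 10 genes and 0 of all genes passed limma's threshold (lowest adjusted p of a member 0.662, TNC with the replicate block; at an unadjusted p under 0.05 the fits called 786 genes with 5 arrays and 3 with 6). Of 137 member values under alternatives, 119 kept their sign. With all 6 arrays, with or without the replicate block, the differences turned to 0.38 for ANGPTL4, -0.75 for EREG, -0.064 for ID1, 0.056 for LTBP1, 0.37 for PTGS2, 0.32 for SPARC and -0.55 for TNC. These turns follow from adding replicate 1. Leaving out each of the 5 arrays in turn gave -0.18 to 0.085 for LTBP1, -0.13 to 0.096 for PTGS2 and -0.0053 to 0.19 for VCAM1, and the other 7 kept their sign. The fits that leave 1 siPGC1alpha array assume that it varies like the controls. The median over the 10 genes stayed between -0.044 and 0.043. With the dim-gene filter at the median control mean, PTGS2, VCAM1 and ANGPTL4 gave no value.

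The labels number replicates 1 to 3 in both groups without saying that a number marks a shared culture. Deviations of same-numbered arrays correlated at 0.093 (number 2) and -0.035 (number 3). The 2 siPGC1alpha arrays were centred on their own mean, so their deviations mirror each other. These correlations therefore cannot decide whether arrays were paired, and the main fit assumed no pairing. With the replicate block on 5 arrays the member differences ran from -0.14 (ANGPTL4) to 0.23 (TNC), and no call changed.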
